A study of Mus musculus with 2 samples.

Results

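The forkhead genes encode transcription factors named after the Drosophila gene fork head, and they are described here in a profile of 5-hydroxymethylcytosine (5hmC) from mouse prospermatogonia, which are fetal male germ cells not yet turned into spermatogonia. All protein-coding genes on autosomes whose symbol is Fox, a letter from a to s and a digit were taken, which gave 41 genes among 20560 autosomal protein-coding genes. The peaks counted for a gene overlapped its annotated span with 10 kb on each side, called its window below. The 41 windows held 283 of the 108395 peaks of the library, and 1 of these peaks lay in the windows of both Foxc2 and Foxl1. The study concerns TET1, an enzyme that oxidises 5-methylcytosine to 5hmC, and the establishment of DNA methylation in the male germline. Its samples here are wild type (WT), without a mutant: 1 library of captured 5hmC and 1 library of the same DNA before capture, both labelled batch 1. The DNA came from 30000 germ cells pooled over several embryos at E17.5, of which 50 ng was sheared for the 5hmC-Seal, a chemical method that puts a biotin-tagged sugar on 5hmC and captures the tagged fragments on streptavidin. The peak list of the captured library is the only file used, so there is no replicate, no read depth and no test across samples. All intervals printed below are exact Clopper-Pearson 95% intervals that cover counting error only.

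Forkhead factors share a winged-helix DNA-binding domain and are grouped by letter into subfamilies. Some members, such as the Foxa factors, open closed chromatin in endoderm, and others are switched by signalling, as the Foxo factors are by PI3K and AKT, which drive them out of the nucleus. In the testis Foxo1 marks prospermatogonia and is needed to keep spermatogonial stem cells, while Foxl2 belongs to the somatic cells of the ovary. In DNA, 5hmC is usually scarce at active CpG-rich promoters and found in gene bodies and at enhancers. Since DNA was measured, no gene's expression is known here, and the cell type could not be checked by marker levels. In the fixed marker lists, windows with a peak were found at 5 of 6 germ cell genes (Nanos2 had none), 4 of 4 Sertoli genes, 3 of 3 Leydig genes and 2 of 2 endothelial genes, but not at the blood gene Ptprc; since 81.8% of all autosomal protein-coding genes had one, this says nothing about the cells.

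A peak was found in the window of 34 of the 41 forkhead genes (82.9%, 67.9 to 92.8), against 81.8% of all autosomal protein-coding genes, so the family as a whole was near the background. Its genes were very unequal. The 5 genes with most peaks, Foxn3, Foxp1, Foxo3, Foxo1 and Foxp4, held 179 distinct peaks or 63.3% of the total. Another 9 genes had a single peak, and 7 had none. Peaks overlapped the annotated span itself in 21 genes (51.2%, 35.1 to 67.1), against 64.3% of all genes. The forkhead genes are short, with a median span of 4.46 kb against 17.6 kb for all genes, and longer genes offer more room for a peak. Across the 41 genes, span and number of peaks had a Spearman rho of 0.613, against 0.554 across all 20560 genes; neighbouring genes share regions and all share 1 library. The counts and coverage in the next paragraph are therefore set beside genes of the same span class, and later values beside all genes where no class is named.

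**Figure D1:**
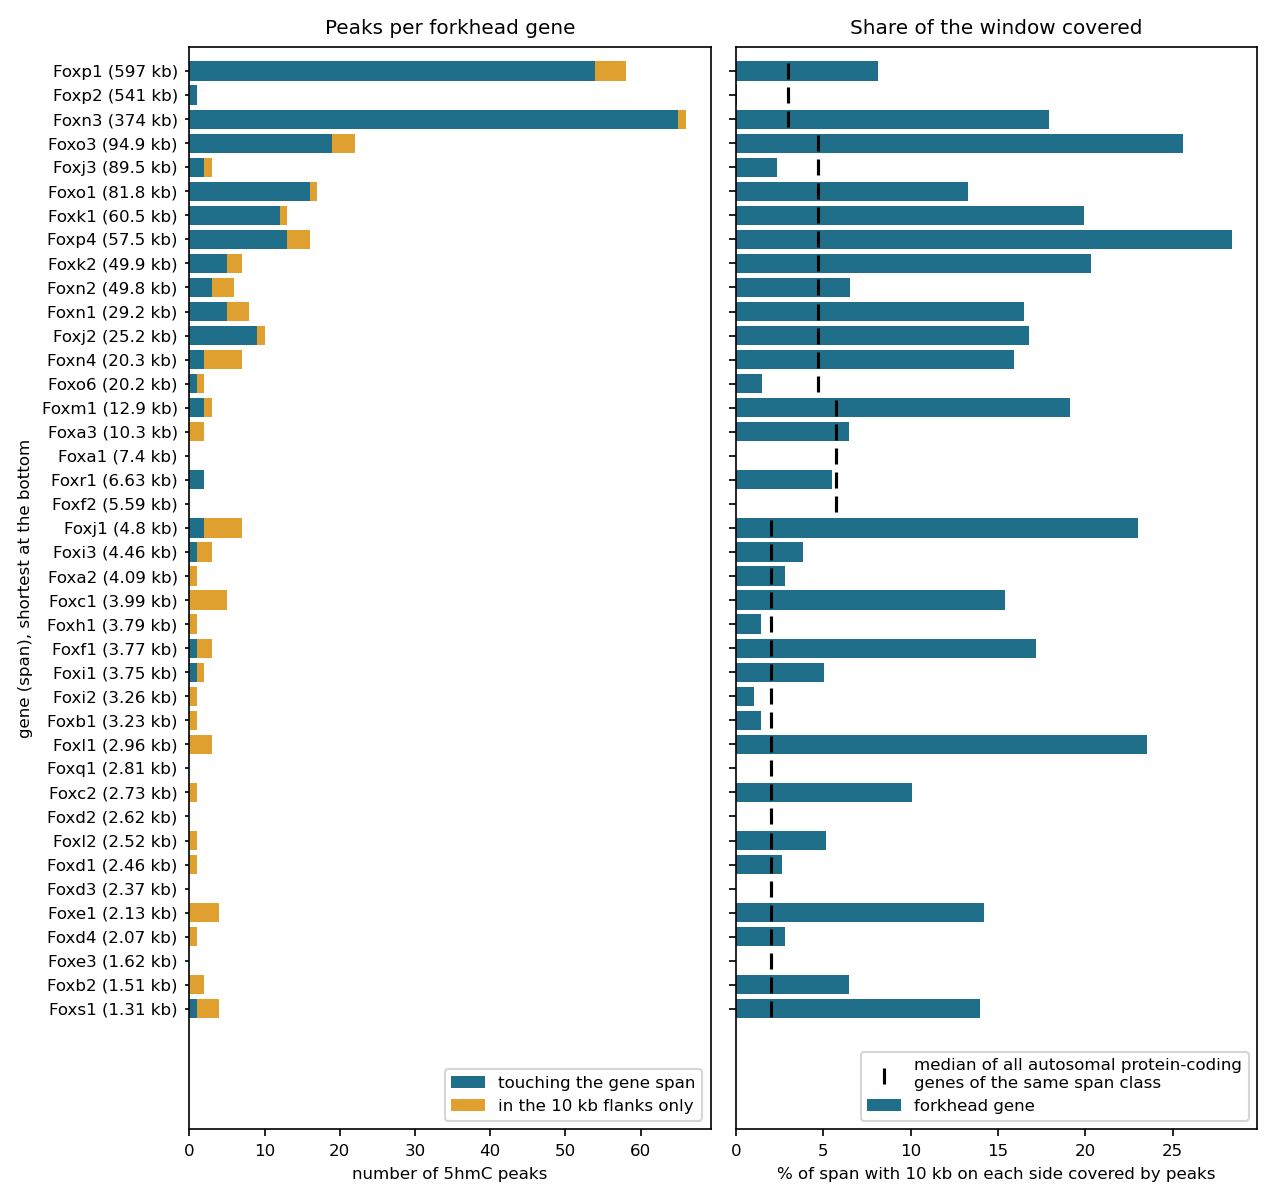
Number of 5hmC peaks touching each forkhead gene shown or lying in its 10 kb flanks (left) and percent of the window covered by peaks (right), with genes ordered by span; black ticks are medians of all autosomal protein-coding genes of the same span class. Foxn3 has 66 peaks and Foxp2, although longer, has 1.

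Most, but not all, long forkhead genes were densely marked. All 11 genes of 20 to 100 kb had a peak in the span (100%, 71.5 to 100), against 83.3% of the 7236 genes in that class, where 90.7% had one in the window. The 3 genes over 100 kb, Foxn3, Foxp1 and Foxp2, also had one in the span, as 95.6% of that class had (96.7% in the window). The windows of the 11 genes were covered to a median of 16.5% (range 1.48 to 28.4), against a class median of 4.73%, and 9 of the 11 lay above that median. Peak density inside these spans had a median of 17.1 per 100 kb, against 6.61 in the class; Foxj3, Foxn2 and Foxo6 lay below the class median, as Foxp2 did in its own class. Of the 14 genes of 20 kb or more, 5 were sparser inside than in the 500 kb on each side. The same count was not made over all genes of that length, so whether 5 of 14 is usual is not known. Short genes differed: in the 22 genes under 5 kb the span held a peak in 5 (22.7%, 7.82 to 45.4), against 20.2%, while the window held one in 17 (77.3%, 54.6 to 92.2), against 58.5%. Of the 5 genes of 5 to 20 kb, 3 had a peak in the window, against 82.7%, and 2 in the span, against 62.7%. The median window coverage of the genes under 5 kb was 3.33%, against 1.99%. Because no replicate exists, these differences have no error beyond counting, and no test was made.

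**Figure D2:**
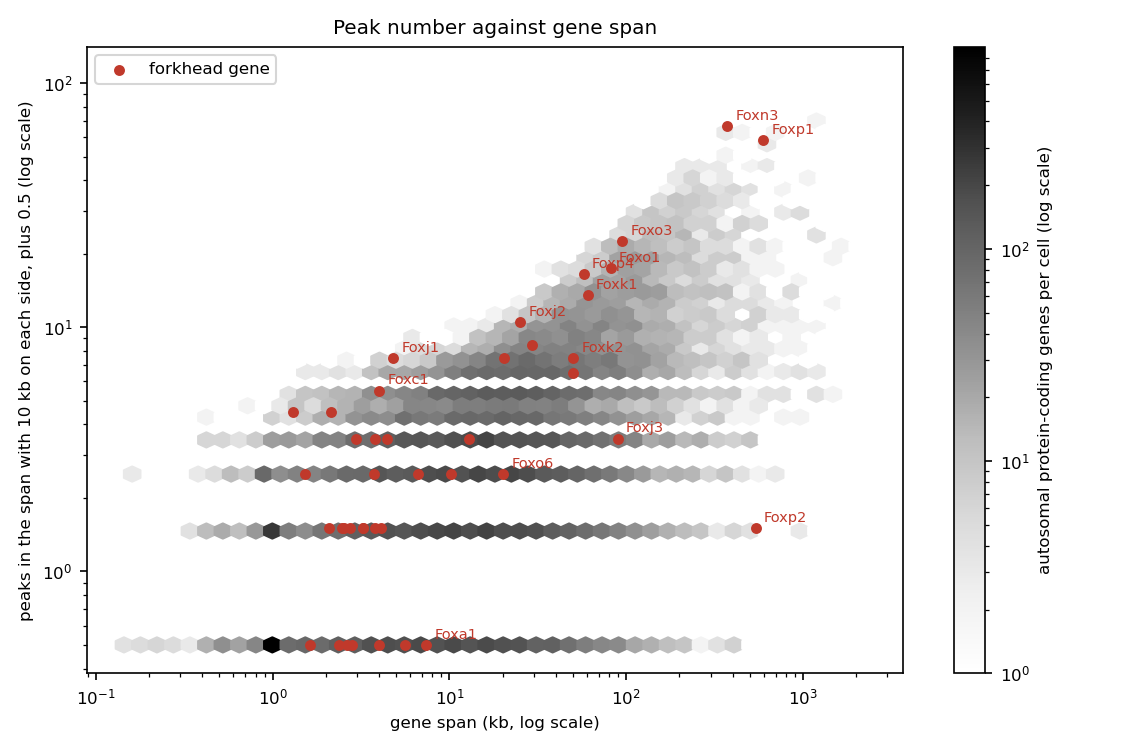
Peaks per window (plus 0.5, log scale) against gene span (kb, log scale) for all autosomal protein-coding genes (grey cells, darker for more genes) and the 41 forkhead genes (red points). Foxn3, Foxo3 and Foxj1 lie near the upper edge of the grey field, and Foxp2, with 1 peak, below most genes of its length.

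In the Foxo subfamily, the end point of insulin and PI3K signalling, the 3 autosomal genes differed: Foxo1 and Foxo3 had many peaks and Foxo6 few. Foxo3 (chromosome 10, 42181845 to 42276695, mm10), which holds ovarian follicles in reserve, had 22 peaks and 25.6% of its window covered, more coverage than 98.2% of genes of 20 to 100 kb. Foxo1 (chromosome 3, 52268337 to 52350109) had 17 peaks and 13.3% of its window covered. Foxo6 (chromosome 4, 120267078 to 120287261), known from the brain, had 2 peaks and 1.48% covered, more than 22.7% of genes of 20 to 100 kb, and its 4.95 peaks per 100 kb of span were more than in 41.9% of them. The Foxo1 peaks were weak and evenly spread, with 8 on either side of the middle of the gene, folds from 2.76 to 4.20 and a highest −log10 q of 3.14. Fold here is the captured signal over the background of the peak caller, and q its adjusted p, both the authors' values for a whole peak. Foxo3 carried stronger peaks, up to a fold of 7.43 at 42284444 to 42287603, about 7.75 kb upstream of the gene, with a second upstream peak of fold 4.79. Within Foxo3, 12 of 19 peaks lay between the middle of the gene and its 3′ end. Peak density inside the genes was 2.17 times that of the 500 kb on each side for Foxo1, 2.13 times for Foxo3 and 0.869 times for Foxo6.

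The genes around the Foxo factors in the same pathway were mixed as well. Of the 29 genes of the fixed PI3K, AKT and FOXO list, 26 had a peak in the window (89.7%, beside 81.8% of all genes), and the median coverage of the list was 7.01% beside 4.24%. These shares are not matched on span, and among all genes of 20 to 100 kb 90.7% had a peak. Kit, the receptor upstream of PI3K in germ cells, had 16 peaks and 27.3% of its window covered. Akt1, the kinase that phosphorylates Foxo proteins, had 9 peaks and 25.8% covered, and Akt2 had 6 peaks and 10.4% covered. Sod2, a Foxo target, and Ccng2 had no peak in the window.

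The widest contrast lay in the Foxp subfamily, whose factors act in immune cells, heart, lung and brain. Foxp1 (chromosome 6, 98925342 to 99522746), a regulator of lymphocytes, had 58 peaks, 54 of them touching its span of 597 kb. Foxp2 (chromosome 6, 14901349 to 15441977), known for its role in speech and vocal learning, is 541 kb long and had 1 peak, of 234 bp and fold 4.09. That peak lay 5.16% along the span from its left end, and the remaining 513 kb, or 94.8% of the span, held none. Foxp4 (chromosome 17, 47867133 to 47924632) is 57.5 kb long and had 16 peaks that covered 28.4% of its window, the largest share of the 41 genes. Per 100 kb of span these are 9.04, 0.185 and 22.6 peaks. Among 216 autosomal protein-coding genes of 500 kb or more the median density was 1.33; 208 of them were below Foxp1 and 7 below Foxp2, and 9 had at most 1 peak, Foxp2 included. The 500 kb on each side of Foxp2 were also sparse, with 1.9 peaks per 100 kb, against 5.3 beside Foxp1 and 10 beside Foxp4, so the density inside Foxp2 was 0.0974 times that of its surroundings. The Foxp4 peaks were many but weak, with no −log10 q above 2.33.

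Among the Foxn genes, Foxn3 (chromosome 12, 99190081 to 99563667), linked to cell cycle checkpoints, had 66 peaks, the most of the family, with 17.9% of its window covered, more than 97.8% of genes over 100 kb. Its peaks ran through the gene without a free stretch longer than 16.9 kb, with 37 left of its middle and 28 right of it. The strongest had a fold of 6.26. Foxn1 (chromosome 11, 78357577 to 78386783), the thymus gene mutated in nude mice, had 8 peaks and 16.5% covered. Foxn4, of retinal progenitors, had 7 peaks, but 5 of these were in the flanks, 3 with their midpoint inside the neighbouring gene Acacb. Foxn2 (chromosome 17, 88440704 to 88490533) had 6 peaks and the highest fold of all forkhead windows, 8.41 at −log10 q 12.3. That peak lay 9.98 kb from the gene, the outermost peak still inside the 10 kb limit, and the first peaks beyond the limit, at 10.0 kb from Foxf1 and 10.1 kb from Foxr1, had folds of 3.20 and 2.86. Foxn2 also had a peak of fold 6.15 inside its span.

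**Figure D3:**
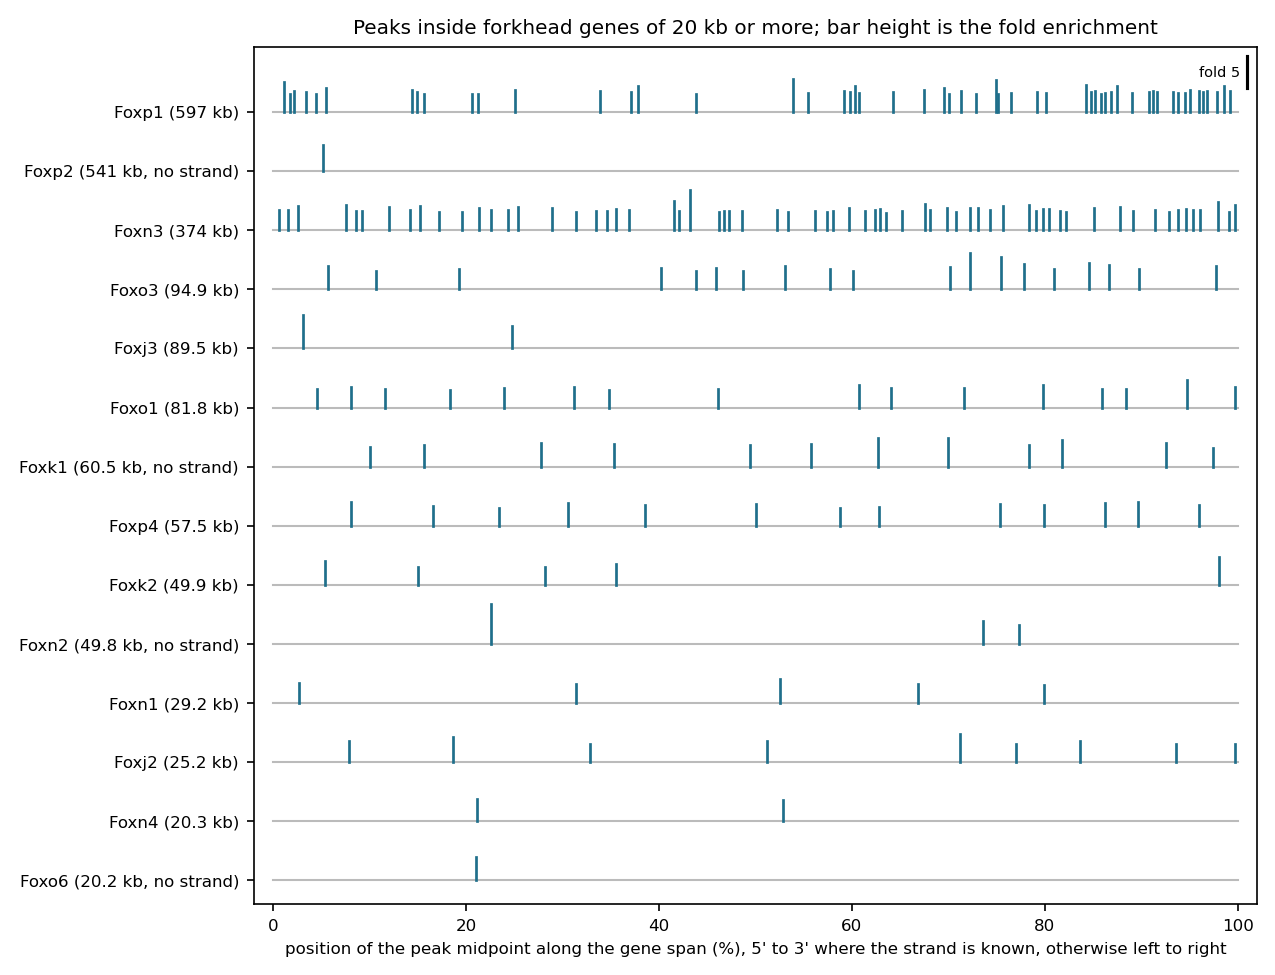
Midpoints of peaks along the 14 forkhead genes of 20 kb or more, as percent of the span, 5′ to 3′ where the strand is known and otherwise left to right; bar height is the fold enrichment. Foxn3 has no free stretch above 16.9 kb and Foxp1 has one of 59.3 kb, whereas Foxp2 and Foxo6 have 1 peak each.

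All 3 genes of cell growth and cell cycle had between 19.1% and 20.3% of the window covered. The class medians were 4.73% for Foxk1 and Foxk2, at 20 to 100 kb, and 5.71% for Foxm1, at 5 to 20 kb. The likeness did not hold for the spans alone, which were covered to 23.2% in Foxk1, 10% in Foxk2 and 34.7% in Foxm1. Foxk1 (chromosome 5, 142401497 to 142462015) and Foxk2 (chromosome 11, 121259987 to 121309900), repressors of autophagy and regulators of glucose use, had 13 and 7 peaks with 19.9% and 20.3% of the window covered. Foxm1 (chromosome 6, 128362994 to 128375886), which drives genes of G2 and mitosis, had 3 peaks and 19.1%, more than 90.5% of genes of 5 to 20 kb. Foxk1 spread its 12 span peaks over the gene, with folds up to 4.48. Foxk2 had its main signal outside the gene, in a 7.58 kb peak of fold 7.22 that began 2.24 kb downstream of the annotated end, the widest peak of the family.

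The Foxj genes ranged from one of the densest of its class to a sparse one. Foxj2 (chromosome 6, 122820184 to 122845366) had 9 peaks touching its 25.2 kb span, or 35.7 per 100 kb, and only 1 of the 7236 genes of 20 to 100 kb was denser. Its surroundings had 5.4 per 100 kb. Most of its peaks were weak: of the 10 in its window, 1 reached a −log10 q of 3, and their median fold was 3.02. The related Foxj3 (chromosome 4, 119539661 to 119629119) is 89.5 kb long and had 2 peaks in the span, with its last 66.8 kb free of them; 1 of its peaks reached a fold of 5.12. Foxj1 (chromosome 11, 116330704 to 116335499), the master regulator of motile cilia, is only 4.8 kb long but had 7 peaks in its window, more than 99.6% of genes under 5 kb had, and 23% of it covered. Of these, 2 lay within the gene, and 3 lay with their midpoint inside the neighbour Rnf157. Foxi1, of inner ear and kidney, and Foxi3, of teeth and hair, had 2 and 3 peaks, and Foxi2 had 1.

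Around the short genes of mesoderm and vessels, most peaks lay in the flanks, which are much longer than the spans. Foxf1 (chromosome 8, 121084386 to 121088154), needed in lung and vascular mesoderm, had 3 peaks and 17.2% of its window covered; 1 peak of fold 4.08 lay in the gene, and 2 lay in the neighbouring noncoding gene Fendrr. Foxl1 (chromosome 8, 121127685 to 121130644), of gut mesenchyme, had no peak in its span but 3 around it, which covered 23.5% of the window. Its left flank shares a 2305 bp peak of fold 3.23 with Foxc2, which had no other. These 3 genes lie close together in a region with 14.1 peaks per 100 kb in their 500 kb flanks. The second cluster of such genes, on chromosome 13, was different: Foxq1 and Foxf2 had no peak in the window, while Foxc1 (31806646 to 31810635), a regulator of eye and vessel development, had 5 flanking peaks, 15.4% covered and a bare span. Foxs1 had 4 peaks; the one that touched its span overlapped 0.153% of it. The ovarian gene Foxl2 (chromosome 9, 98955607 to 98958126) had 1 peak of fold 3.05, 4.63 kb downstream. Foxh1, the Smad partner in Nodal signalling, had 1 of fold 3.10 inside its neighbour Ppp1r16a, and Foxr1 had 2, of fold 3.28 and 3.30.

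**Figure D4:**
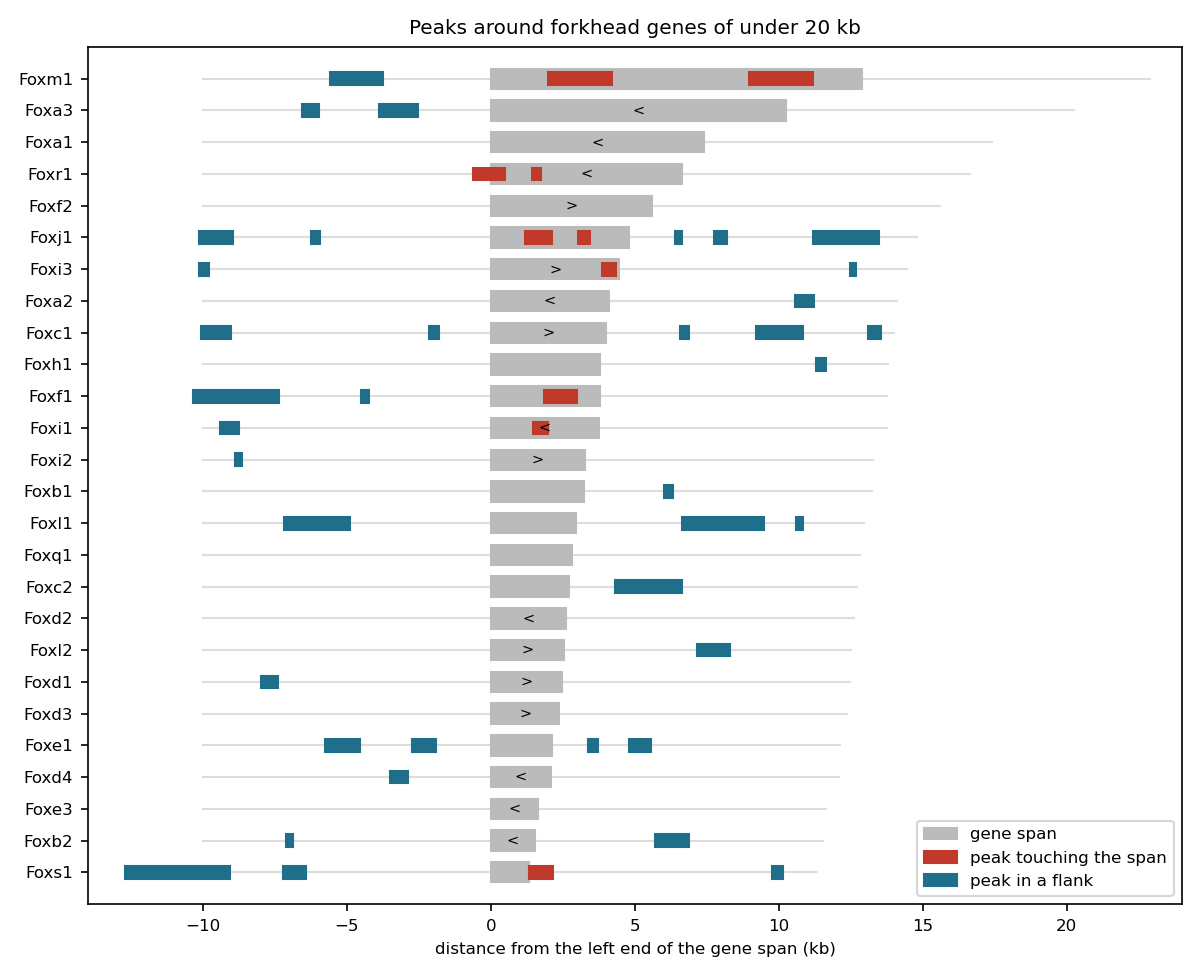
Peaks (coloured boxes) around the forkhead genes under 20 kb that are shown, as distance in kb from the left end of the span (grey box; > and < give the strand where known). Only 7 of the spans are touched by a peak, and Foxa1, Foxd2, Foxd3, Foxe3, Foxf2 and Foxq1 have none in span or flanks.

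Foxa1, Foxd2, Foxd3, Foxe3, Foxf2 and Foxq1 were among the 7 genes without a peak. In the group of genes that act in brain, neural crest, eye and thyroid, such as the Foxb, Foxd and Foxe genes, 5 of 9 had a peak and none had one in the span; the median coverage was 1.44%. All 9 are under 5 kb, a class in which 58.5% of genes had a peak in the window and 20.2% in the span, with a median coverage of 1.99%, so these counts were near those of other short genes. Foxe1, of the thyroid, stood above the others with 4 flanking peaks and 14.2% covered. Of the 3 Foxa genes of endoderm, Foxa2 and Foxa3 had 1 and 2 flanking peaks, and Foxa1 had its nearest peak 79.4 kb from the gene. Of the other bare genes, the nearest peak lay at 33.4 kb for Foxd2, 23.4 kb for Foxd3, 18.9 kb for Foxf2, 16.6 kb for Foxq1 and 16.2 kb for Foxe3. The 7 genes lay in sparse surroundings: the 500 kb on each side held 11 to 35 peaks (median 29), against 13 to 165 (median 74.5) for the 34 genes with a peak. These surroundings include the 10 kb flanks. The peaks that placed 13 of the 34 genes among those with a peak lay in the flanks only and were counted again here. Foxa2, Foxc1 and Foxp2 had 35 or fewer around them and still had a peak. Foxd2 and Foxe3 are neighbours, as are Foxf2 and Foxq1, so their surroundings are partly the same sequence. Over all 41 genes, peaks in the surroundings and coverage of the window had a Spearman rho of 0.643, given as a description. Both measures include the peaks of the flanks, so they are not independent.

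Few starts of forkhead genes had a peak, but too few genes were available to set them apart from other genes. A start is listed for 26 of the genes, in RefSeq promoters of GRCm38.p6, the build of mm10, and 1 of these genes, Foxn1, had a peak within 1 kb of it (3.85%, 0.0973 to 19.6), against 10.6% of all genes with a listed start. For the 15 genes without one, both ends of the span were used, and Foxf1 and Foxs1 had a peak there, against 27.9% of such genes. Together this is 3 of 41 (7.32%, 1.54 to 19.9), against 14.1%, which lies inside the interval. Within 2 kb it was 11 of 41, against 28.8%, again with both ends used for the 15 genes without a listed start. Of the 30 listed starts alone, 4 lay within 2 kb of a peak (13.3%), against 24.2% of all listed starts. The median distance from a listed start to the nearest peak was 4.99 kb, against 5.16 kb for all genes. The Foxn1 peak was narrow and weak, 254 bp at fold 3.15, and lay 0.48 kb downstream of the listed start, 0.655 kb inside the annotated span. In Foxj2, Foxk2, Foxo1 and Foxo3 the nearest peak stood 1.28, 2.52, 3.21 and 5.04 kb from the listed start. The 250 bases before the start of these genes, and of Foxi1, whose nearest peak stood 1.78 kb from the start, are shown, 5′ to 3′ on the gene's strand with each CpG, the target of methylation and hydroxymethylation, in capitals, to print the only listed start with a peak beside starts without one, both rich and poor in CpG. They lie at chr11:78386609-78386858 on the minus strand (Foxn1), chr6:122819934-122820183 on the plus strand (Foxj2), chr11:121259737-121259986 on the plus strand (Foxk2), chr3:52268087-52268336 on the plus strand (Foxo1), chr10:42276696-42276945 on the minus strand (Foxo3) and chr11:34208090-34208339 on the minus strand (Foxi1).
Foxn1: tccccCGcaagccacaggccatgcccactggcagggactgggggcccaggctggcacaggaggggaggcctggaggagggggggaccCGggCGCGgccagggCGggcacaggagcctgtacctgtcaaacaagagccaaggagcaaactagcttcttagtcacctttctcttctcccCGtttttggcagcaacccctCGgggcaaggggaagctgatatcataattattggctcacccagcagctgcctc
Foxj2: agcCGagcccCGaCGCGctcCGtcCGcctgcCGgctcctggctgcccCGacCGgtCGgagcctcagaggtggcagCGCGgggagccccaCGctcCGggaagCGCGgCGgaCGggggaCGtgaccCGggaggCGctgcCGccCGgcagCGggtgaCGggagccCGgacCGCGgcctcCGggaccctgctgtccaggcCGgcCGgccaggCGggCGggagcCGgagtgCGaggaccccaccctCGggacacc
Foxk2: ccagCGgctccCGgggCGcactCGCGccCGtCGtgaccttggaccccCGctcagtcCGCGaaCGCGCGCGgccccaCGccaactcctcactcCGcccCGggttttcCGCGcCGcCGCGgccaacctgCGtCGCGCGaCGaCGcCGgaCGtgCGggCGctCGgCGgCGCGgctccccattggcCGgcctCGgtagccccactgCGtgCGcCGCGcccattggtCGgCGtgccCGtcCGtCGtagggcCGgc
Foxo1: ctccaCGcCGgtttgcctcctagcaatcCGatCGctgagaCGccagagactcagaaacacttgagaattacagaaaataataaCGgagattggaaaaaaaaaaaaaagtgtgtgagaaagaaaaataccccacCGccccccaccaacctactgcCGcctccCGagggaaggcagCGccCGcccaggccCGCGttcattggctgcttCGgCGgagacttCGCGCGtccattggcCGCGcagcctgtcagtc
Foxo3: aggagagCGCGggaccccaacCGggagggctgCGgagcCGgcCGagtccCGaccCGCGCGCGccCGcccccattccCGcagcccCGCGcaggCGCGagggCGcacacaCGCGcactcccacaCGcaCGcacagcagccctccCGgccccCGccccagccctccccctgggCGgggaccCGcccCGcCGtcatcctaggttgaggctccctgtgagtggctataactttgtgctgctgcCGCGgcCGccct
Foxi1: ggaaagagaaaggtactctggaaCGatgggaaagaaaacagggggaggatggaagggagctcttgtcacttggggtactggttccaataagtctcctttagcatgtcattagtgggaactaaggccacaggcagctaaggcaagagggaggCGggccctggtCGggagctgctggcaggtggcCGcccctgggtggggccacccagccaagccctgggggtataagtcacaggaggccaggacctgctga
Foxn1 has 7 CpGs in its stretch, Foxj2 36, Foxk2 48, Foxo1 20, Foxo3 31 and Foxi1 4, so the start with a peak was not set apart from all bare ones by its number of CpGs. In the whole promoter of 250 bases before to 50 after the start, the ratio of observed to expected CpG was 0.272 for Foxn1, 0.804 for Foxj2, 1.28 for Foxk2, 1.1 for Foxo1, 0.834 for Foxo3 and 0.232 for Foxi1.

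Forkhead promoters were richer in CpG than most. Of their 30 listed starts, 21 (70%) had an observed to expected ratio of 0.6 or more, against 48.9% of 20085 starts of all genes, and the medians were 0.698 and 0.586. A peak within 1 kb was found at 0 of the 21 CpG-rich forkhead starts, against 3.91% of all CpG-rich starts. It was found at 1 of the 9 others (11.1%), against 15.6% of all CpG-poor starts. At 21 and 9 starts a difference from these shares could not be shown, and none was tested. The forkhead motif TGTTTAC, or GTAAACA on the other strand, was in 1 of the 30 promoters, that of Foxa1, and in 3.04% of all of them.

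**Figure D5:**
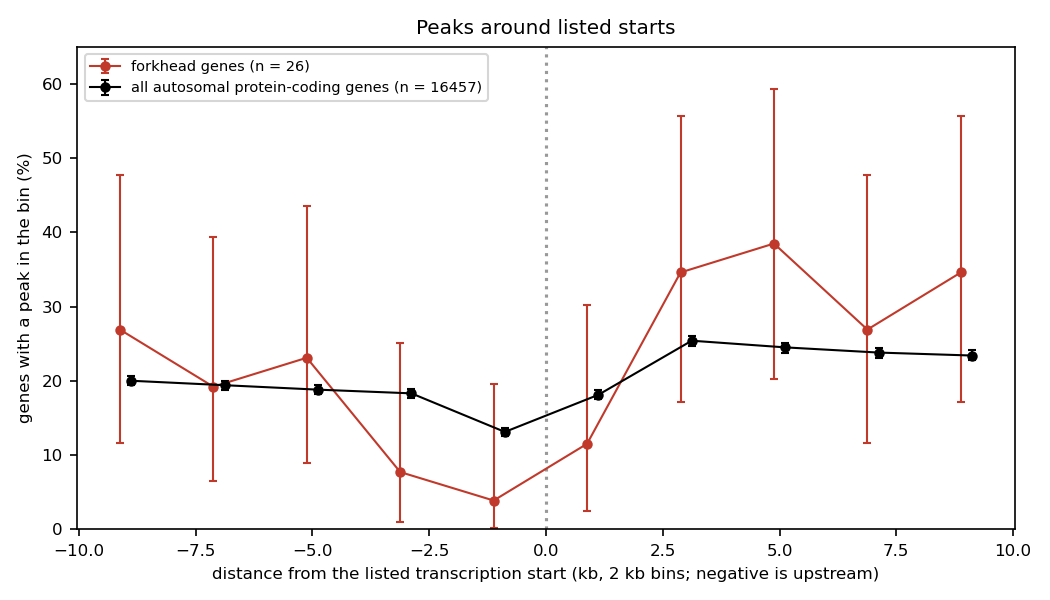
Percent of genes with a peak in each 2 kb bin around the listed start, for 26 forkhead genes (red) and 16457 autosomal protein-coding genes (black), with exact 95% intervals. Both lines dip at the start, to 3.85% and 13.1% in the 2 kb before it, and the forkhead intervals are wide.

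Farther from the start, peaks were found on both sides. In the 2 kb before the start 1 of 26 genes had a peak (3.85%, 0.0973 to 19.6), against 13.1% of all genes, and 2 to 4 kb after it 9 of 26 did (34.6%, 17.2 to 55.7), against 25.4%. Upstream, 6 of 26 had one 4 to 6 kb before the start (23.1%, 8.97 to 43.6), against 18.8%, and 7 of 26 had one 8 to 10 kb before it (26.9%, 11.6 to 47.8), against 20%. At the 3′ end, 9 of the 26 genes of known strand had a peak within 1 kb (34.6%, 17.2 to 55.7), against 22.4% of all genes. Among those of 20 kb or more it was 7 of 10 (70%, 34.8 to 93.3), against 21.7%: Foxj2, Foxj3, Foxk2, Foxn3, Foxo1, Foxo3 and Foxp4. At the 5′ end of the span it was 1 of the 26 genes, Foxn1, against 8.76%, and so 1 of these 10, against 7.32%. The split by end was chosen after the values were seen. These shares were not matched on peak density. All of the 7 genes named at the 3′ end but Foxj3 were denser inside than the median of their span class. Most of their 3′ end peaks were weak calls. Only that of Foxk2 reached a −log10 q of 3, at 3.34, and the others ran from 1.02 in Foxj2 to 2.68 in Foxn3. A peak reached over the 3′ end in Foxj2, Foxk2, Foxo1 and Foxo3, whereas their 5′ ends began with 1.28 to 5.04 kb free of peaks.

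By their medians, forkhead peaks were weaker and wider than autosomal peaks as a whole. Their median fold was 3.17 against 3.34 for 106034 autosomal peaks and 3.25 for the peaks in windows of all autosomal protein-coding genes, and their median width was 834 bp against 639 and 652 bp. A −log10 q of 5 or more was reached by 6 of the 283 peaks (2.12%, 0.782 to 4.56), against 11.9% and 6.24%. Foxn3 and Foxp1 had 66 and 58 of the 283 peaks. Without these genes the median fold was 3.21, nearer to the 3.25 of all gene windows. The share with a −log10 q of 5 or more was then 3.14% (1.03 to 7.19). Its interval holds 6.24%, which the interval of all 283 peaks does not. Leaving out these genes was chosen after the values were seen. The 6 peaks with a −log10 q of 5 or more belonged to Foxn2, with 2, Foxo3, with 2, Foxk2 and Foxn3, and 3 of them lay outside the spans. At that threshold a peak was left in 4 of the 41 windows (9.76%, 2.72 to 23.1), against 17% of all genes. None of the 22 genes under 5 kb kept one (0%, 0 to 15.4), against 10.3% of that class. None of the 5 genes of 5 to 20 kb did (0%, 0 to 52.2), against 11%. Both intervals hold the share of the class. Of the 3 genes over 100 kb, 1 kept one, Foxn3, against 42.3%. Among genes of 20 to 100 kb the share was higher than in the class, 3 of 11 (27.3%, 6.02 to 61) against 18.5%.

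Beside other families of developmental factors, the forkhead genes lay nearer to the Sox, Pax, Tbx and Gata genes than to the Hox genes in the share with a peak; these differences were not tested. A peak was in the window of 23 of 39 Hox genes (59%, 42.1 to 74.4) and of 37 of 44 Sox, Pax, Tbx and Gata genes (84.1%, 69.9 to 93.4). Median coverage was 1.06% and 4.16%, against 6.47% in the forkhead genes. The order turned without the flanks: the median share of the span covered was 0.0433% in the forkhead genes, the value of Foxp2. It was 2.8% in the Sox, Pax, Tbx and Gata genes and 0% in the Hox genes. The forkhead genes are shorter than the Sox, Pax, Tbx and Gata genes, with median spans of 4.46 and 13.7 kb. Under 5 kb this median share was 0% in both, and at 5 to 20 kb it was 0% against 5.26%. At 20 to 100 kb it was 14.8% in the forkhead genes against 3.13%, and over 100 kb 7.84% against 2.73%. Among genes under 5 kb, 10 of 24 Hox genes had a peak, against 17 of 22 forkhead genes. In the class of 20 to 100 kb, 16 Sox, Pax, Tbx and Gata genes had a median coverage of 3.16%, against 16.5% for the 11 forkhead genes.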

How the data were processed

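The deposited file lists broad peaks of the captured library in mm10 coordinates. The authors' fold enrichment is a ratio per peak, and their deposited −log10 p and −log10 q and display score belong to the whole broad peak. The submitters' processing notes name MACS2 2.1.0, Bowtie2 2.5.0, deepTools 3.5.1, Trim Galore, bedtools 2.27.1 and SAMtools 1.16.1. What each did, with which settings, and whether the library before capture was the control is not stated in those notes. The lowest −log10 q is 1.01, so the list holds weak calls.

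Gene spans came from RefSeq on GRCm38.p6; 105 autosomal protein-coding genes with a start in the first 3 Mb were left out. Peaks were counted from 1 bp of overlap with Python 3.11.15, pandas 2.3.3 and scipy 1.17.1, in code tested on simulated data. The gene table gives no strand or exons, so starts and strand came from RefSeq promoters, for 26 genes. The members and lists were chosen with earlier results of these data known. Genes described in detail are those with a start peak, the 10 with most peaks, the 10 with most coverage, the 5 with the highest fold and 10 of germ line, gonad and cilia; the others were named after their values were seen, Foxp2 among them, and the 500 kb surroundings were added then too. Span classes stood in for matching on length. Stricter peaks, other flanks, other start windows and merged peaks were tried. A few genes are counted in the totals but not reported here by name, in text or figures.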

Additional observations from a re-analysis of the deposited data

How the results depend on the processing

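The threshold of the peak list and the flank decided most counts. With peaks of −log10 q of at least 3, 14 of the 41 genes had a peak, against 38.8% of all genes. At that threshold 12 had one in the span, against 23.7%, 2 had a start peak, against 1.98%, and 26 peaks remained. With at least 5, 4 had a peak, against 17%, 3 had one in the span, against 9.24%, and 6 peaks remained. A start peak was left in 0 genes, against 0.613%. The median coverage was 0% at both thresholds, for forkhead and for all genes. Without a flank 21 genes had a peak, against 64.3% of all genes. The median coverage was then 0.0433%, below the 2.76% of all genes, whereas with flanks it was above. The 3 start peaks became 1 with a window of 250 bp (7.24% of all genes) and 11 with 2 kb (28.8%). They became 12 with either end of every span (27.9%), a choice made after seeing the data. In 15 of 29 alternatives the value stayed within 1.5 times the count or within the interval of the median, taken from ranks, or of the share. The start peaks at a −log10 q of at least 3 were among them. Without Foxn3 and Foxp1, also chosen later, the median fold was 3.21 and the share with −log10 q of 5 or more 3.14% (1.03 to 7.19). No paired analysis was possible because there is 1 captured library. Depth is unknown, so a bare window cannot be told apart from one below the reach of the library.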

Other observations

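The rule leaves out forkhead genes of the X and noncoding genes with a forkhead name. Of the 3 protein-coding forkhead genes on the X, Foxo4 had 2 peaks in its window with folds from 2.77 to 3.95, Foxp3, the factor of regulatory T cells, had 2 with folds from 2.95 to 3.13, and Foxr2 had none; in none did a peak touch the span. The noncoding gene Foxd2os had no peak, as Foxd2 had none, Foxl2os had 1, of fold 3.05, and Foxo6os had 2, with folds of 2.75 and 2.98.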
